A study of Mus musculus with 9 samples.

Results

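The DNA replication genes described here are 42 genes whose proteins license replication origins, build the replication fork, copy DNA, supply deoxynucleotides and pack new DNA into chromatin. They were taken by name from a list of such genes, and all 42 were among the 22396 genes of the deposited counts. Their mRNAs were measured in RNA that came down with RIG-I, a cytosolic receptor that recognises RNA with a 5′ triphosphate or a base-paired end. The cells were B16F10, a mouse melanoma line, stably expressing FLAG-tagged RIG-I, and all groups carried this protein. RNA was recovered from lysates with anti-FLAG beads, depleted of ribosomal RNA and sequenced as stranded libraries. The groups were cells with a control shRNA (shCtr, genotype given as WT) and cells with either of 2 shRNAs against Osgep (shOSGEP#1 and shOSGEP#2), each with 3 replicates from independent experiments. OSGEP is the enzyme of KEOPS, a complex that makes the t6A modification of tRNAs that read codons beginning with A. Whole-lysate RNA was not analysed here, so that a lower share of what RIG-I brought down, a lower level of an mRNA in the cells and fewer cells in S phase cannot be told apart.

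Replication starts when the origin recognition complex, with Cdc6 and Cdt1, loads the MCM helicase onto DNA in G1. In S phase Mcm10, Cdc45 and the GINS complex turn the loaded helicase into an active form, and polymerases tethered by PCNA copy the strands that it unwinds. Most of these genes are transcribed as cells enter S phase, when E2F transcription factors are released from the retinoblastoma proteins, and they are highly expressed in dividing tumour cells.

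The shCtr libraries held 40333037, 47750758 and 41805753 counts (replicates 1, 2 and 3), and the shOSGEP#1 libraries 34551436, 50224299 and 30697653. The shOSGEP#2 libraries were smaller, with 25460689, 568995 and 14914731 counts. The second replicate of shOSGEP#2 was thus very shallow, held counts for 4196 genes against 11733 to 13958 in the other libraries, and is given apart from the comparisons below. At its depth 3 counts corresponded to 5.27 CPM (the count scaled to the library total), whereas in the other libraries 3 counts corresponded to at most 0.201 CPM. Such floors, and the Wilson intervals given here and below, cover counting error only, since reads copied by PCR are not independent molecules. The shOSGEP#1 replicate 3 library also stood apart. Mitochondrially encoded genes held 2.96% of its counts (95% Wilson interval 2.95 to 2.97), and 0.147% to 0.445% of those of the other 7 deep libraries. Several counts, medians and fold changes are given below without this library as well.

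Osgep itself (ENSMUSG00000006289), against which the shRNAs are directed, was at 19.1, 19.9 and 15.5 CPM in shCtr replicates 1, 2 and 3. It was at 3.76, 1.15 and 1.53 CPM in shOSGEP#1, and at 0.0786 and 2.88 CPM in shOSGEP#2 replicates 1 and 3, with no count in replicate 2. Every shOSGEP library was therefore below every shCtr library. The log2 fold change was -3.10 ± 0.73 (SE) in shOSGEP#1 and -3.84 ± 0.93 in shOSGEP#2, and neither passed the threshold used throughout, an adjusted p under 0.01 in edgeR's quasi-likelihood test (adjusted p = 0.0128 and 0.015). Osgep passed in shOSGEP#1 when either shOSGEP#2 library was left out and in shOSGEP#2 when its replicate 3 was left out. The gene of RIG-I, Ddx58 (ENSMUSG00000040296), was at 180, 184 and 278 CPM in shCtr, 232, 216 and 327 CPM in shOSGEP#1, and 402 and 429 CPM in shOSGEP#2. Its log2 fold change was 0.26 ± 0.21 in shOSGEP#1 and 0.86 ± 0.23 in shOSGEP#2 (edgeR, adjusted p = 0.427 and 0.0239), and the latter passed without shCtr replicate 3, at 1.10. The value in shOSGEP#1 was 0.05 without shOSGEP#1 replicate 3, and that in shOSGEP#2 ran from 0.24 to 1.10 over the alternative settings. Whether the Ddx58 counts include mRNA of the FLAG-tagged RIG-I construct was not tested.

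The labelled cell type was checked against 8 melanocyte or melanoma markers. All 8 had counts, and their most abundant gene was Tyrp1, an enzyme of melanin synthesis, at up to 3000 CPM. Their summed level was 6609, 6342 and 8911 CPM in shCtr, 6653, 8094 and 7230 CPM in shOSGEP#1, and 2718 and 3499 CPM in shOSGEP#2. The summed melanocyte markers were thus lower in both deep shOSGEP#2 libraries than in the other 6, which was so for 7 of the 42 replication genes (Mcm4, Mcm7, Pola2, Prim2, Pold3, Rfc3 and Rrm1) and for 12.2% of all genes tested, and their part in the result was not tested. The sum hides Tyr, which encodes tyrosinase and was lower in both shRNA groups, at 153, 153 and 193 CPM in shCtr, 30.4, 26.1 and 27.3 CPM in shOSGEP#1, and 5.93 and 19.8 CPM in shOSGEP#2. Leukocyte, endothelial and keratinocyte markers stayed at or below 1.82 CPM for any gene in the 8 deep libraries. Of the 4 fibroblast markers the highest was Col1a1, at up to 14.8 CPM. Their summed level was 9.50 and 15.7 CPM in the deep shOSGEP#2 libraries and 2.01 to 4.44 CPM in the other 6, and its part in the result was not tested.

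All 42 replication genes passed the filter on low counts, and so did 12744 genes of the table. The comparisons ask whether depletion of OSGEP changed which RNAs were recovered with RIG-I, here for the replication mRNAs. Both shRNA groups were compared with the same shCtr libraries. In shOSGEP#2, 37 of the 42 genes had a log2 fold change below 0, against 53.4% of all genes tested, and the median was -0.58, against -0.06 over all genes tested. In shOSGEP#1 the median was -0.06, against 0.00 over all genes tested, and 25 of the 42 were below 0 (49.9% of all genes tested). Without shOSGEP#1 replicate 3 this median was 0.05 and 18 of the 42 were below 0 (50.6% of all genes tested). Without replicate 3 in any group 10 were, and no share over all genes is given here for that fit. Between the shRNAs, 38 of 42 were lower in shOSGEP#2 than in shOSGEP#1 (52.5% of all genes tested), with a median of -0.45 against -0.04. Over the fits that left out libraries this median ran from -0.66 to -0.26, and that of shOSGEP#2 against shCtr from -0.67 to -0.34. Other lists, described below, also leaned below 0 against shCtr. In shOSGEP#2 this held for 36 of 47 other replication factors (median -0.28), 17 of 24 S-phase regulators (-0.28) and 23 of 28 mitotic genes (-0.31). In shOSGEP#1 it held for 31, 17 and 22 of them (medians -0.12, -0.37 and -0.50). Between the shRNAs 29, 9 and 12 were below 0 (medians -0.19, 0.17 and 0.06).

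Few of these differences passed the test for a single gene. In shOSGEP#1 none of the 42 passed the threshold in edgeR, where 9.67% of all genes tested did (637 higher and 595 lower), and 4 of the 42 had an unadjusted p under 0.05 (34.9% of all genes tested). DESeq2 on the same 8 libraries called 1 (19.0% of these genes), Mcm2, which was higher. In shOSGEP#2 edgeR called 1 of the 42, the polymerase subunit gene Pold3, which fell, where 9.55% of all genes tested passed in either direction and 3.89% passed as lower. The 721 higher and 496 lower calls among all genes became 901 and 375 when library totals replaced TMM scaling. An unadjusted p under 0.05 was reached by 20 of the 42, all lower (35.6% of all genes tested in either direction, 17.9% lower), and DESeq2 called 9, all lower (18.8% of these genes in either direction, 8.29% lower). Between the shRNAs edgeR called none of the 42 (10.8% of all genes tested), with 16 at an unadjusted p under 0.05, all lower in shOSGEP#2 (37.1% of all genes tested in either direction, 19.0% lower), while DESeq2 called 5, all lower in shOSGEP#2 (20.3% in either direction, 9.83% lower). At an adjusted p under 0.05, 1 of the 42 was higher in shOSGEP#1 (11.5% of all genes tested), 9 were lower in shOSGEP#2 (9.64%) and 6 were lower in shOSGEP#2 than in shOSGEP#1 (11.2%). With all 9 libraries in the fit edgeR called no gene of the whole table in any comparison, and the medians of the replication genes were -0.07, -1.06 and -0.86 for the same 3 comparisons, against -0.01, -0.37 and -0.35 over all genes tested.

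Libraries were also compared by position. Both deep shOSGEP#2 libraries lay below every shCtr library for 24 of the 42 genes, against 23.6% of all genes tested, and above for 2, Mcm2 and Gins3, against 28.7%. The 3 shOSGEP#1 libraries lay below every shCtr library for 5 genes (Orc2, Pold3, Rfc4, Rfc5 and Rpa1) and above for 2 (Mcm2 and Rfc1), against 22.2% and 23.1% of all genes tested. For the genes between these limits the groups overlapped.

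The replicates of a group differed from each other in these genes. The 42 mRNAs together held 3013, 3188 and 4045 CPM in shCtr replicates 1, 2 and 3, 4063, 3762 and 2453 CPM in shOSGEP#1, and 2751 and 2563 CPM in shOSGEP#2 replicates 1 and 3. Relative to the shCtr mean, the median log2 ratio of the 42 was -0.21, -0.11 and 0.27 in the shCtr libraries and 0.16, -0.01 and -0.54 in the shOSGEP#1 libraries. It was -0.42 and -0.46 in the shOSGEP#2 libraries. The same median over all genes tested, which scaling to the library total largely sets, lay between -0.01 and 0.03 in each of the 8 libraries. In shCtr, replicate 3 was the highest library for 37 of the 42 genes, while over all genes tested it was the highest for 37.4% and the lowest for 40.9%. In shOSGEP#1, replicate 3 was the lowest for 37 of the 42, while over all genes tested it was the lowest for 42.7% and the highest for 39.1%. This was the library with the mitochondrial share of 2.96%, whose part in the result was not tested.

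**Figure D1:**
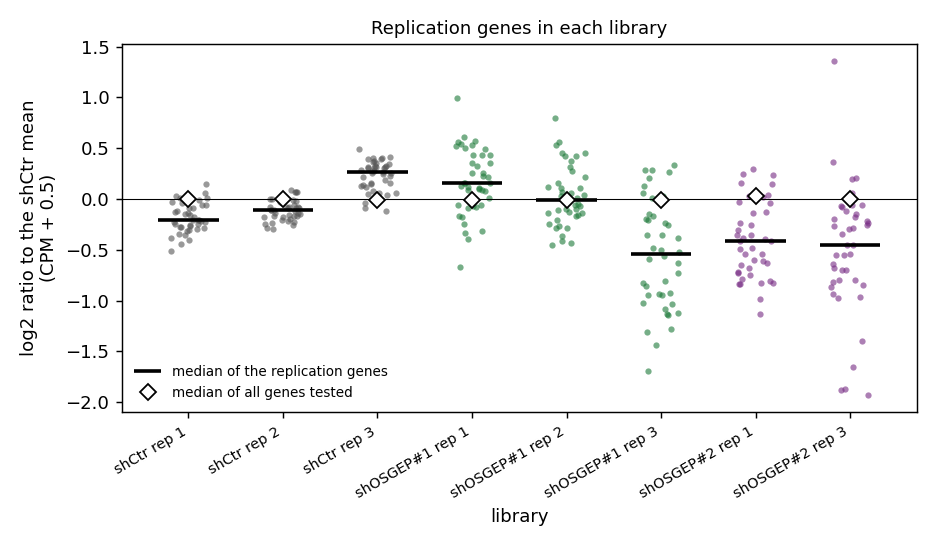
Each point is the log2 ratio of a replication gene to its shCtr mean (CPM + 0.5, vertical axis) in each of the 8 deep libraries (horizontal axis), black bars are medians of the 42 genes and white diamonds are medians of all 12744 genes tested. The bar of shOSGEP#1 replicate 3 sits at -0.54, apart from those of replicates 1 and 2 at 0.16 and -0.01, while the diamonds stay between -0.01 and 0.03.

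Calls among the 42 depended on these libraries. Without shOSGEP#1 replicate 3, edgeR called 1 of the 42 in shOSGEP#1 (Mcm2, at 0.89), 5 in shOSGEP#2 (Rpa1, Pole2, Chaf1b, Rfc5 and Pold3, at -0.85, -1.17, -1.19, -1.003 and -1.29) and 3 between the shRNAs (Rpa1, Mcm4 and Mcm7, at -0.68, -1.06 and -1.30), where 5.72%, 11.6% and 8.84% of all genes in that fit were called. Without replicate 3 in any group, which left 1 shOSGEP#2 library that was assumed to vary like the other groups, 10 were called in shOSGEP#1, all higher, 4 in shOSGEP#2 (Rpa1, Pole2, Rfc5 and Pold3, at -0.74, -1.05, -0.93 and -0.85), and 10 between the shRNAs, all lower in shOSGEP#2, where 17.5%, 14.2% and 14.8% of all genes in the fit were called. The 10 higher in shOSGEP#1 were Mcm2, Mcm3, Mcm4, Mcm6, Mcm7, Gins2, Pola1, Rfc1, Fen1 and Rrm2, with log2 fold changes of 0.51 to 0.97. Pold3 was not called in shOSGEP#2 when any single shCtr library or only shOSGEP#2 replicate 3 was left out, with fold changes of -1.36 to -0.92. Without shOSGEP#2 replicate 1, 4 of the 42 were called against shCtr (Rpa3, Rfc4, Tyms and Pold3, at 1.24, -2.07, -2.06 and -1.81) and 3 against shOSGEP#1 (Rpa3, Rfc1 and Pold3, at 1.20, -1.08 and -1.47), where 9.35% and 11.3% of all genes were called. In that fit, as in each that leaves 1 library of shOSGEP#2, the lone library was assumed to vary like the other groups. Without shCtr replicate 3, Prim2 was called between the shRNAs, at -0.93, where 9.68% of all genes were called. Among all genes tested, the 1232 calls in shOSGEP#1 became 427, 318 and 763 without shCtr replicates 1, 2 and 3, 429 and 724 without shOSGEP#1 replicates 2 and 3, and 2263 without replicate 3 in any group. The 1217 calls in shOSGEP#2 became 584, 518 and 766 without the shCtr libraries in turn, 631 without shOSGEP#2 replicate 3 and 1841 without replicate 3 in any group. The 1375 calls between the shRNAs became 821 without shOSGEP#1 replicate 2 and 743 without shOSGEP#2 replicate 3.

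**Figure D2:**
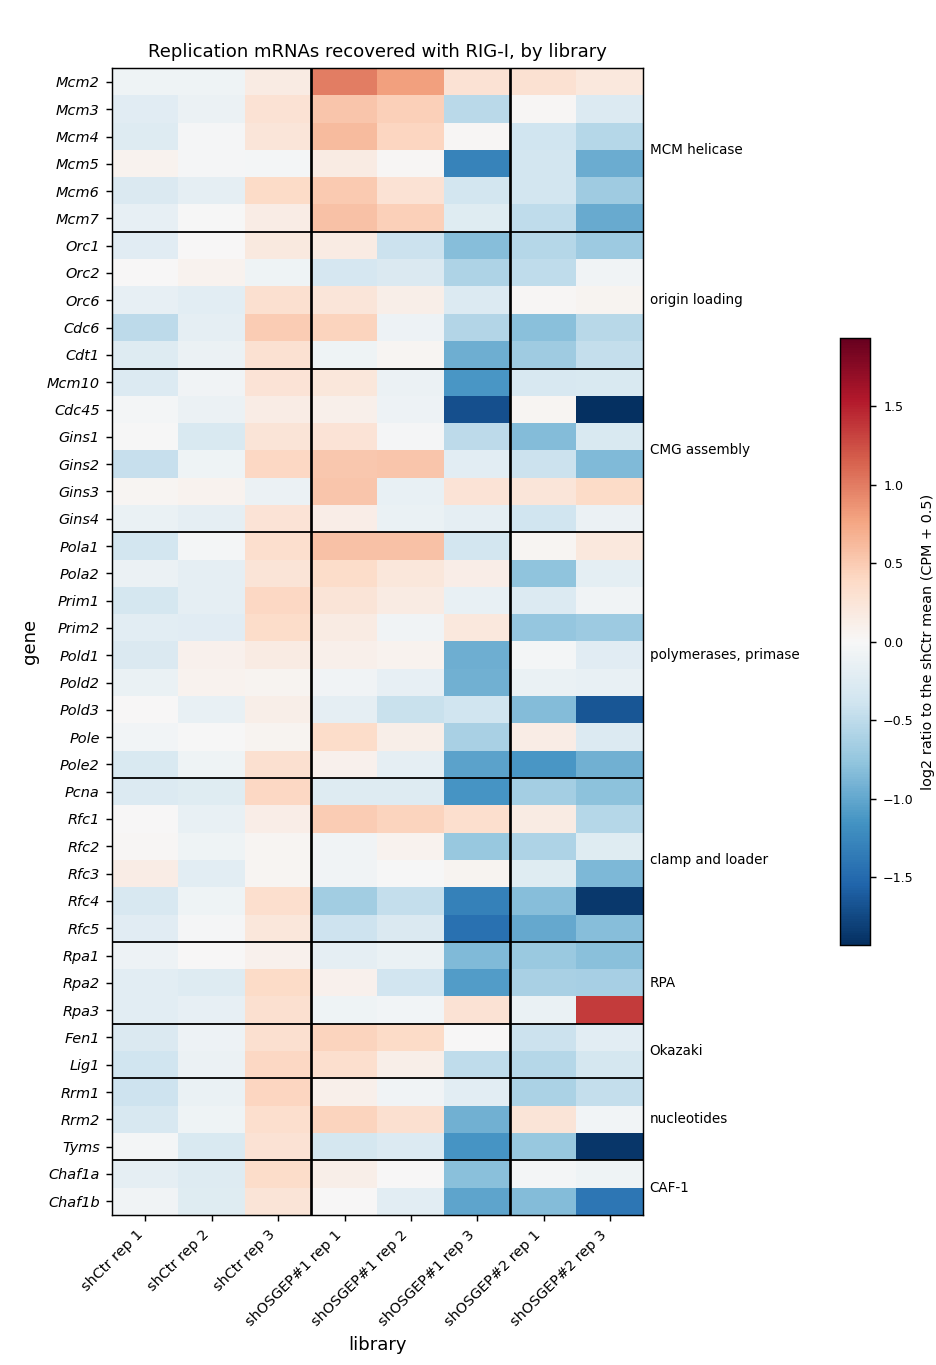
Colour shows the log2 ratio of each of the 42 genes (rows, grouped by role) to its shCtr mean (CPM + 0.5) in the 8 deep libraries (columns), red above and blue below. In shOSGEP#1, replicates 1 and 2 are red for most MCM genes and replicate 3 is blue for most genes, and both shOSGEP#2 libraries are blue for most genes.

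In shCtr the order of levels was set by length-corrected values, CPM per kilobase of transcript. Pcna, which encodes the sliding clamp, had the highest level, at 192 ± 52.2 CPM per kilobase (SD, n = 3). Rrm2 and Mcm2 followed at 88.8 ± 20.2 and 67.8 ± 6.57, the small subunit of ribonucleotide reductase and a helicase subunit. The ranges of mean ± SD of this pair overlapped, and their order within each library was not compared. The lowest levels were those of Orc1, Gins3 and Gins2, at 4.18 ± 0.616, 3.03 ± 0.218 and 3.02 ± 0.941 CPM per kilobase, and the last pair did not differ beyond its spread. Before length correction Gins2 was at 11.8 CPM, above Gins1 at 8.91 and Gins3 at 7.64. Its place thus depends on the transcript length used, 3900 nucleotides. Most neighbours in this order were within the SD of each other. The 6 MCM genes ranged from 26.5 (Mcm4) to 67.8 (Mcm2), although their proteins form a ring with a single copy of each. Among the polymerase genes the levels ran from 7.004 for Pole, the catalytic subunit of polymerase epsilon, to 28.4 for Pold2, a subunit of polymerase delta.

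The MCM helicase is the ring that unwinds DNA at the fork. Mcm2 (ENSMUSG00000002870) was at 215, 216 and 254 CPM in shCtr, 456, 397 and 278 CPM in shOSGEP#1, and 281 and 264 CPM in shOSGEP#2. All 5 deep shOSGEP libraries lay above all 3 shCtr libraries, and the excess was largest in shOSGEP#1 replicates 1 and 2. The log2 fold change was 0.71 ± 0.18 in shOSGEP#1 and 0.16 ± 0.20 in shOSGEP#2 (adjusted p = 0.0197 and 0.606 in edgeR). With all 9 libraries in the fit the value for shOSGEP#2 was -0.10. The other 5 MCM genes had fold changes of -0.25 to 0.36 in shOSGEP#1 and of -0.80 to -0.21 in shOSGEP#2, and none passed the threshold. Without shOSGEP#1 replicate 3 the values in shOSGEP#1 were 0.49 (Mcm3), 0.50 (Mcm4), 0.08 (Mcm5), 0.38 (Mcm6) and 0.50 (Mcm7), and the median of the 6 was 0.49, against 0.25 with it. Mcm7 (ENSMUSG00000029730), which shares exon bases with Cops6 and Ap4m1 on the opposite strand, was at 134, 148 and 165 CPM in shCtr, 221, 205 and 126 CPM in shOSGEP#1, and 106 and 75.6 CPM in shOSGEP#2. Replicates 1 and 2 of shOSGEP#1 were above every shCtr library and replicate 3 below every one, which was also so for Mcm3 and Pole among the 42 genes and for 2.42% of all genes tested. The direct comparison of the shRNAs gave -1.09 ± 0.25 for Mcm7 and -0.92 ± 0.21 for Mcm4 (edgeR, adjusted p = 0.0108 and 0.0102), just outside the threshold. Together the 6 MCM mRNAs held 841, 883 and 1077 CPM in shCtr, 1447, 1291 and 804 CPM in shOSGEP#1 and 857 and 712 CPM in shOSGEP#2, so that the groups overlapped.

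Among the 5 genes of origin recognition and helicase loading, none passed the threshold in either shRNA. Orc2 (ENSMUSG00000026037), a subunit of the origin recognition complex, was at 120, 125 and 112.1 CPM in shCtr, 95.5, 97.7 and 78.6 CPM in shOSGEP#1, and 85 and 114 CPM in shOSGEP#2. The shOSGEP#1 libraries were all below shCtr and the shOSGEP#2 libraries overlapped with it. On the log2 scale the differences were -0.41 ± 0.15 and -0.36 ± 0.17 (adjusted p = 0.0744 and 0.154 in edgeR). Orc2 shares exon bases with Nif3l1 on the opposite strand. Orc1 (ENSMUSG00000028587), the subunit of that complex whose level follows the cell cycle, was at 10.7, 12.6 and 14.4 CPM in shCtr, 14.1, 9.34 and 6.91 CPM in shOSGEP#1, and 8.48 and 7.58 CPM in shOSGEP#2. Both shOSGEP#2 libraries lay below shCtr, with a log2 fold change of -0.74 ± 0.32 (edgeR, adjusted p = 0.128), and shOSGEP#1 overlapped with shCtr (-0.33 ± 0.28, adjusted p = 0.443). The value of Orc1 in shOSGEP#1 was -0.12 without shOSGEP#1 replicate 3. The loading factors Cdc6 and Cdt1 had both shOSGEP#2 libraries below every shCtr library, with log2 fold changes of -0.78 ± 0.34 and -0.67 ± 0.27 that did not pass. Orc6 gave 0.03 and -0.05 for the 2 shRNAs.

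Mcm10, Cdc45 and the 4 GINS subunits assemble the active helicase. Gins2 (ENSMUSG00000031821) was at 8.5, 11 and 15.7 CPM in shCtr, 17.1, 17.2 and 10.1 CPM in shOSGEP#1, and 8.68 and 6.3 CPM in shOSGEP#2. Its shCtr libraries were spread widely enough to overlap with both shRNA groups. The log2 fold change was 0.32 ± 0.30 in shOSGEP#1 and -0.74 ± 0.35 in shOSGEP#2 (edgeR, adjusted p = 0.492 and 0.156), and Gins2 shares a long stretch of exon with Gse1 on the opposite strand. The value of Gins2 in shOSGEP#1 was 0.53 without shOSGEP#1 replicate 3 and 0.80 without replicate 3 in any group. Gins3 (ENSMUSG00000031669) was at 7.88, 8.02 and 7.01 CPM in shCtr, 11.3, 6.89 and 9.28 CPM in shOSGEP#1, and 9.07 and 9.99 CPM in shOSGEP#2. It was 1 of the 5 genes with a positive value in shOSGEP#2, at 0.22 ± 0.28, and gave 0.24 ± 0.25 in shOSGEP#1 (edgeR, adjusted p = 0.605 and 0.534). Cdc45 was uneven within groups, at 27.3, 23.8 and 7.53 CPM in shOSGEP#1 and 26.2 and 6.3 CPM in shOSGEP#2, against 24.8, 23.5 and 28 CPM in shCtr, and its value in shOSGEP#1 was -0.39, or -0.00869 without replicate 3. The 6 genes of this step had fold changes of -0.39 to 0.32 in shOSGEP#1 and of -0.74 to 0.22 in shOSGEP#2.

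The 9 polymerase and primase genes held the only call. Pold3 (ENSMUSG00000030726), an accessory subunit of polymerase delta, the enzyme of the lagging strand, was at 50.6, 45.6 and 54.6 CPM in shCtr, 44.6, 37.1 and 38.4 CPM in shOSGEP#1, and 27.8 and 15.6 CPM in shOSGEP#2. The 3 groups did not overlap, with shCtr highest and shOSGEP#2 lowest. Pold3 fell by 1.29 ± 0.25 on the log2 scale in shOSGEP#2 (edgeR, adjusted p = 0.00466), lower in both libraries. With only the 2 groups compared in the fit it did not pass (-1.27, adjusted p = 0.0133). The adjusted p over the alternative settings ran from 1.33e-05 to 0.605, and with all 9 libraries in the fit the fold change was -1.80 and did not pass. In shOSGEP#1 it was -0.34 ± 0.21 (adjusted p = 0.283), and the direct comparison of the shRNAs gave -0.95 ± 0.25 (adjusted p = 0.0187). Pole2 and Prim2, subunits of polymerase epsilon and of the primase, came next in shOSGEP#2 at -1.17 ± 0.35 and -0.83 ± 0.23 (edgeR, adjusted p = 0.0345 and 0.0251), and part of Pole2 shares exon bases with another gene on the same strand. The catalytic subunits Pola1, Pold1 and Pole had values of 0.02, -0.22 and -0.13 in shOSGEP#2. The whole group ranged from -0.36 to 0.31 in shOSGEP#1 and from -1.29 to 0.02 in shOSGEP#2.

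PCNA is the ring that holds polymerases on DNA, and the RFC complex, of 5 subunits, loads it. Pcna (ENSMUSG00000027342) was at 242, 249 and 383 CPM in shCtr, 245, 245 and 132 CPM in shOSGEP#1, and 185 and 167 CPM in shOSGEP#2. Both shOSGEP#2 libraries and shOSGEP#1 replicate 3 lay below shCtr, and the other shOSGEP#1 libraries lay within it. The log2 fold change was -0.50 ± 0.25 in shOSGEP#1 and -0.82 ± 0.29 in shOSGEP#2 (edgeR, adjusted p = 0.182 and 0.0663), the former -0.26 when shOSGEP#1 replicate 3 was left out. Rfc4 (ENSMUSG00000022881) was at 22.6, 26.5 and 35.1 CPM in shCtr, 17.5, 20.3 and 11 CPM in shOSGEP#1, and 15.6 and 7.31 CPM in shOSGEP#2. Every shOSGEP library was below every shCtr library. Its fold changes of -0.80 ± 0.32 and -1.37 ± 0.37 were the lowest of the 42 genes in both comparisons but did not pass (edgeR, adjusted p = 0.0948 and 0.0246). The former was -0.59 when shOSGEP#1 replicate 3 was left out, and Rfc4 shares exon bases with Eif4a2 on the opposite strand. Rfc5 followed the same order, at 53.3, 61 and 72.5 CPM in shCtr, 47.3, 51 and 22.6 CPM in shOSGEP#1 and 31.3 and 35.1 CPM in shOSGEP#2, with -0.64 in shOSGEP#1 and -0.36 there without replicate 3, and shares exon bases with Wsb2 on the opposite strand, an mRNA at 659 CPM in shCtr. Rfc1, the large subunit, was instead above shCtr in all shOSGEP#1 libraries (0.40 ± 0.19, adjusted p = 0.149 in edgeR) and overlapped in shOSGEP#2 (-0.24 ± 0.21). All 6 genes had a value below 0 in shOSGEP#2.

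Replication protein A, of 3 subunits, coats the unwound strands. Rpa1 (ENSMUSG00000000751), the subunit with most of the DNA contacts, was at 230, 246 and 259 CPM in shCtr, 216, 223 and 135 CPM in shOSGEP#1, and 148 and 140 CPM in shOSGEP#2. All shOSGEP libraries were below shCtr, and shOSGEP#1 replicate 3 was at the level of shOSGEP#2. The log2 fold change was -0.37 ± 0.19 in shOSGEP#1 and -0.86 ± 0.21 in shOSGEP#2 (edgeR, adjusted p = 0.187 and 0.0168), and the former was -0.17 without shOSGEP#1 replicate 3. Rpa2 gave -0.40 and -0.74 for the 2 shRNAs, the former -0.15 without shOSGEP#1 replicate 3. Rpa3, the smallest subunit, was at 24.3, 25.2 and 34.9 CPM in shCtr, 26.4, 27.1 and 34.3 CPM in shOSGEP#1, and 25.7 and 72.9 CPM in shOSGEP#2 replicates 1 and 3, with a log2 fold change of 0.69 ± 0.34 (edgeR, adjusted p = 0.172). Replicate 3 of shOSGEP#2 was above every shCtr library, as was the shallow replicate 2 at 77.3 CPM, and replicate 1 was within shCtr.

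Fen1 and Lig1 trim and seal Okazaki fragments, the short pieces of the lagging strand. Lig1 (ENSMUSG00000056394), DNA ligase I, was at 49.7, 60 and 85.8 CPM in shCtr, 81.8, 70.2 and 46.4 CPM in shOSGEP#1, and 44.5 and 51.4 CPM in shOSGEP#2. The groups overlapped, with fold changes of 0.01 ± 0.24 and -0.54 ± 0.27 (edgeR, adjusted p = 0.987 and 0.181). Lig1 shares exon bases with Zswim9 on the opposite strand. Fen1 gave 0.27 ± 0.18 and -0.41 ± 0.21, and -0.68 ± 0.21 between the shRNAs (edgeR, adjusted p = 0.0402).

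Deoxynucleotides come from ribonucleotide reductase, whose subunits are encoded by Rrm1 and Rrm2, and thymidylate from Tyms. Rrm2 (ENSMUSG00000020649) was at 156, 185 and 243 CPM in shCtr, 264, 242 and 102 CPM in shOSGEP#1, and 231 and 187 CPM in shOSGEP#2. The groups overlapped, and shOSGEP#1 replicate 3 was the lowest library of all 8. Its fold changes of 0.04 ± 0.30 and 0.01 ± 0.34 were close to 0 (adjusted p = 0.938 and 0.988 in edgeR), but in shOSGEP#1 the value was 0.36 without shOSGEP#1 replicate 3, and 0.56 and called without replicate 3 in any group. Rrm1, the large subunit, had both shOSGEP#2 libraries below shCtr (-0.63 ± 0.23, adjusted p = 0.0718 in edgeR) and gave -0.06 ± 0.20 in shOSGEP#1. Tyms (ENSMUSG00000025747) was at 41.2, 34.2 and 51.1 CPM in shCtr, 33.4, 35 and 19 CPM in shOSGEP#1, and 25.3 and 11.1 CPM in shOSGEP#2. The shOSGEP#2 libraries were both below shCtr but differed from each other, with fold changes of -0.55 ± 0.32 and -1.29 ± 0.37 (adjusted p = 0.249 and 0.0315 in edgeR), the former -0.32 without shOSGEP#1 replicate 3.

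The CAF-1 complex places histones on new DNA. Chaf1b (ENSMUSG00000022945) was at 32.3, 28.6 and 40.4 CPM in shCtr, 33.9, 29.2 and 16.4 CPM in shOSGEP#1, and 18.8 and 12.5 CPM in shOSGEP#2. The shOSGEP#2 libraries were below shCtr, and shOSGEP#1 overlapped with it through replicates 1 and 2. Chaf1b had fold changes of -0.36 ± 0.27 and -1.19 ± 0.32 (adjusted p = 0.387 and 0.024 in edgeR), the former -0.11 without shOSGEP#1 replicate 3. Its partner Chaf1a gave -0.19 ± 0.24 and -0.15 ± 0.27, the former 0.05 without shOSGEP#1 replicate 3.

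**Figure D3:**
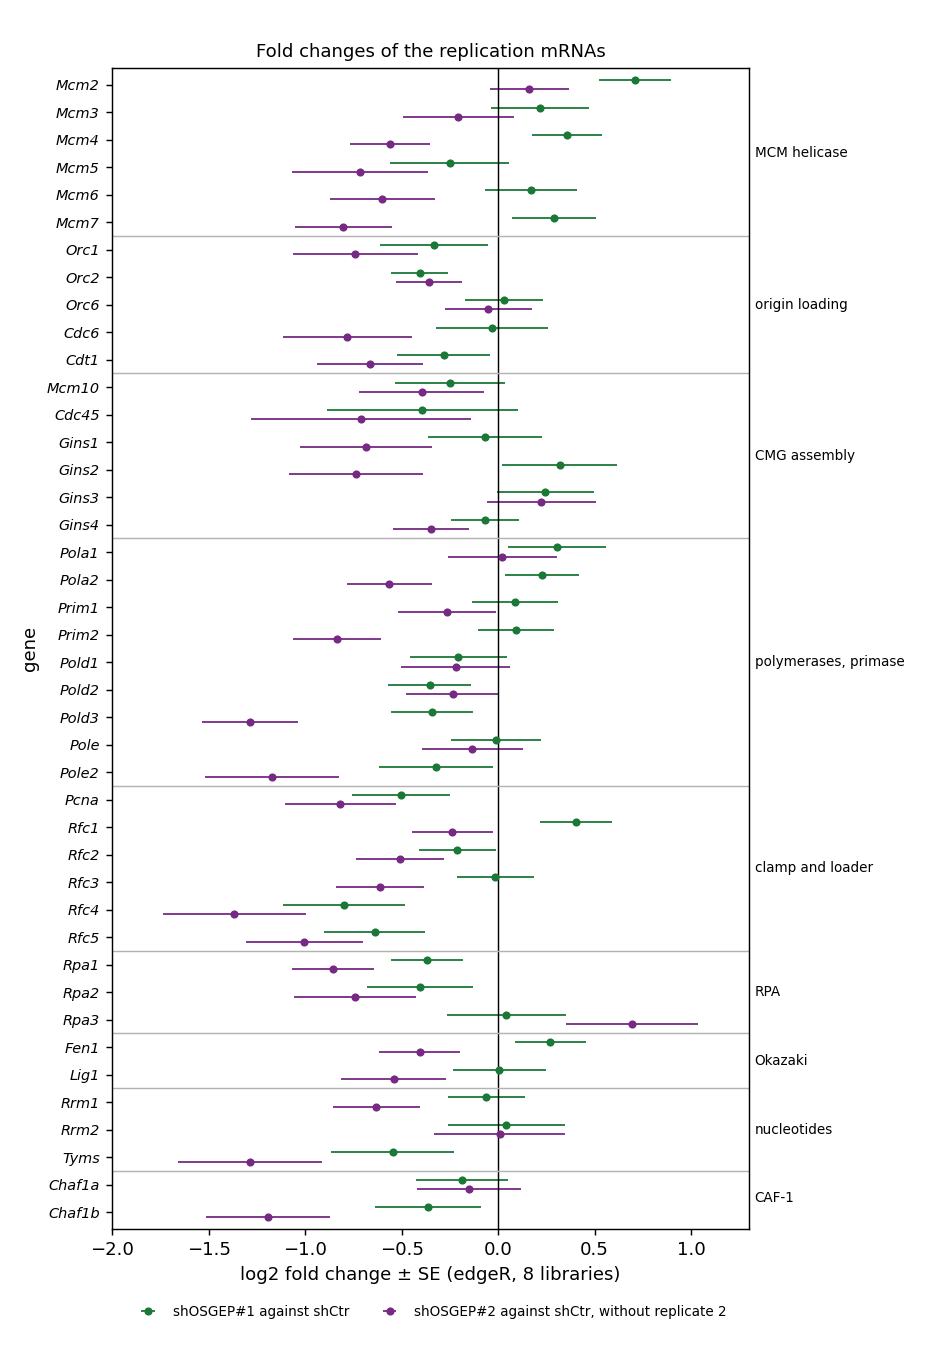
Points are log2 fold changes with SE bars (horizontal axis, edgeR, 8 libraries) of the 42 genes (vertical axis, grouped by role) for shOSGEP#1 (green) and shOSGEP#2 without replicate 2 (purple) against shCtr. The purple points lie left of 0 for 37 genes and the green points for 25, and of all 84 points only the purple one of Pold3, at -1.29, passed the threshold.

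The shallow replicate 2 of shOSGEP#2 had counts for 10 of the 42 genes. It held 597 counts on them, 0.105% of its total (95% Wilson interval 0.0968 to 0.114), where the levels of the other shOSGEP#2 libraries would give 1512 at its depth. All 42 would have more than 3 counts at those levels. Of the 42, 32 had no count, a share of 76.2%, against 59.4% of the 10159 tested genes with more than 3 counts by the same reckoning. Mcm3, for example, had no count. The counts were 114 for Mcm2, 97 for Cdt1, 118 for Gins4, 48 for Pole, 48 for Pcna, 30 for Rfc2, 19 for Rpa1, 44 for Rpa3, 77 for Rrm1 and 2 for Rrm2. In CPM, Gins4 was at 207, Cdt1 at 170, Pole at 84.4 and Rpa3 at 77.3, each above every shCtr library, and Mcm2 at 200, Rrm1 at 135, Pcna at 84.4, Rpa1 at 33.4 and Rrm2 at 3.51, each below every other library. No share over all genes is given here for these positions, so they are not read as a result about these genes. The median Spearman correlation of its counts with those of the other libraries was 0.568, where the other libraries had 0.950 to 0.970.

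Other genes of S phase were counted from lists of textbook genes. Of 47 other replication factors, none was called in shOSGEP#1 by edgeR (11 at an unadjusted p under 0.05, against 34.9% of all genes tested, and 2 called by DESeq2, against 19.0%) and 2 in shOSGEP#2 (9.55% of all genes tested). The latter count became 1 without any shCtr library, shOSGEP#1 replicate 2 or shOSGEP#2 replicate 3, 4 without shOSGEP#2 replicate 1 and 5 without shOSGEP#1 replicate 3, and the former became 6 without replicate 3 in any group. Of all genes, 4.62%, 4.10% and 6.08% were called in shOSGEP#2 without the shCtr libraries in turn. The share was 7.14% without shOSGEP#1 replicate 2 and 11.6% without shOSGEP#1 replicate 3. Rrm2b, a ribonucleotide reductase subunit induced by p53, was at 43.6, 49.9 and 37.1 CPM in shCtr, 50.8, 56.4 and 61.2 CPM in shOSGEP#1, and 119 and 136 CPM in shOSGEP#2. It rose by 1.45 ± 0.17 in shOSGEP#2 (edgeR, adjusted p = 0.000302), above every other library in both, and gave 0.36 ± 0.15 in shOSGEP#1 (adjusted p = 0.128). Rrm2b had no count in the shallow replicate 2 of shOSGEP#2, and with all 9 libraries in the fit its value was 0.90 and did not pass. Pole3, a small subunit of polymerase epsilon, was at 31.9, 32.4 and 42.8 CPM in shCtr, 36, 30 and 24.2 CPM in shOSGEP#1, and 17.9 and 16.4 CPM in shOSGEP#2. It fell by 1.15 ± 0.23 in shOSGEP#2 (edgeR, adjusted p = 0.00585), a call lost when any shCtr library, either shOSGEP#2 library or shOSGEP#1 replicate 2 was left out, with fold changes of -1.25 to -0.99. Top2a, topoisomerase II alpha, was at 201, 240 and 269 CPM in shCtr, 245, 261 and 126 CPM in shOSGEP#1 and 248 and 269 CPM in shOSGEP#2, and the groups overlapped (-0.18 ± 0.24 and 0.03 ± 0.27).

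Of 24 S-phase regulators, edgeR called 6 in shOSGEP#1, 1 higher and 5 lower, and 3 in shOSGEP#2, 1 higher and 2 lower, where 9.67% and 9.55% of all genes tested were called. Cdk2, the kinase that pairs with cyclins E and A, was at 410, 506 and 743 CPM in shCtr, 295, 262 and 209 CPM in shOSGEP#1, and 127 and 153 CPM in shOSGEP#2. The groups did not overlap, and Cdk2 fell by 1.13 ± 0.22 in shOSGEP#1 and by 2.08 ± 0.27 in shOSGEP#2 (edgeR, adjusted p = 0.00514 and 0.000481). E2f5, which encodes an E2F factor mostly linked to repression, was at 18.4, 16.4 and 20.7 CPM in shCtr, 6.16, 3.84 and 4.89 CPM in shOSGEP#1, and 5.93 and 5.7 CPM in shOSGEP#2. It fell by 1.91 ± 0.25 and by 1.76 ± 0.29 (edgeR, adjusted p = 0.000717 and 0.00191), with every shOSGEP library below shCtr, and shares exon bases with 1810022K09Rik on the opposite strand. Tfdp2, which encodes a dimer partner of E2F factors, was at 33.2, 35.6 and 46.5 CPM in shCtr, 70.1, 68.7 and 58.7 CPM in shOSGEP#1, and 82.5 and 76.2 CPM in shOSGEP#2. It rose by 0.76 ± 0.17 and by 0.95 ± 0.19 (edgeR, adjusted p = 0.00904 and 0.0048). The call of Tfdp2 was lost in shOSGEP#1 without shCtr replicates 1 or 2 or any shOSGEP#1 library (0.66 to 0.84), and in shOSGEP#2 without shCtr replicates 1 or 2 or either shOSGEP#2 library (0.86 to 1.04). It was also lost in both with a replicate block (0.77 and 0.95) and in shOSGEP#2 with only the 2 groups compared in the fit (0.97). Of all genes, 3.38%, 2.52% and 6.05% were called in shOSGEP#1 without the shCtr libraries in turn, and 3.40% and 5.72% without shOSGEP#1 replicates 2 and 3. In shOSGEP#2 the share was 4.62% without shCtr replicate 1 and 11.6% without shOSGEP#1 replicate 3. Without single libraries the count of 6 became 3 (shCtr replicates 1 or 3, shOSGEP#1 replicate 3), 2 (shOSGEP#1 replicate 2) or 1 (shCtr replicate 2), and the count of 3 became 1 (shCtr replicate 1, shOSGEP#2 replicate 3) or 5 (without shOSGEP#1 replicate 3), and 6 without replicate 3 in any group.

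The other calls among these regulators were in shOSGEP#1. Rb1, the retinoblastoma gene, was at 46.3, 54.8 and 57.3 CPM in shCtr, 32.4, 32.5 and 31.6 CPM in shOSGEP#1, and 69.5 and 76.7 CPM in shOSGEP#2. It lay below shCtr in all shOSGEP#1 libraries and above it in both shOSGEP#2 libraries. Rb1 fell by 0.73 ± 0.14 in shOSGEP#1 (edgeR, adjusted p = 0.00559), gave 0.37 ± 0.16 in shOSGEP#2 (adjusted p = 0.12), and differed between the shRNAs by 1.10 ± 0.16 (adjusted p = 0.000797). Its value in shOSGEP#2 was -0.18 with all 9 libraries in the fit. Rb1 shares exon bases with Rcbtb2 on the opposite strand. E2f6, which encodes a repressor of the E2F family, was at 51, 53.4 and 41.7 CPM in shCtr, 25.2, 21.8 and 20.8 CPM in shOSGEP#1, and 40.7 and 42.7 CPM in shOSGEP#2. It fell by 1.12 ± 0.16 in shOSGEP#1 (edgeR, adjusted p = 0.00111) and gave -0.32 ± 0.18 in shOSGEP#2, a difference between the shRNAs of 0.80 ± 0.18 (adjusted p = 0.00794). The value of E2f6 in shOSGEP#2 was 0.82 with all 9 libraries in the fit. E2f2, an activating E2F factor, was at 31.5, 34.8 and 38.2 CPM in shCtr, 15.7, 14.1 and 5.6 CPM in shOSGEP#1, and 14.3 and 17.5 CPM in shOSGEP#2. It fell by 1.57 ± 0.32 in shOSGEP#1 (edgeR, adjusted p = 0.0059) and gave -1.23 ± 0.36 in shOSGEP#2 (adjusted p = 0.0338, called without shOSGEP#1 replicate 3), with every shOSGEP library below shCtr. The call in shOSGEP#1 was lost for Rb1 when any of the 6 shCtr and shOSGEP#1 libraries was left out, for E2f2 without any shCtr library or shOSGEP#1 replicate 2, for Cdk2 without shCtr replicates 2 or 3 or shOSGEP#1 replicates 2 or 3, and for E2f6 without shCtr replicate 2. The fold changes without these libraries were -0.82 to -0.66, -1.72 to -1.50, -1.19 to -0.85 and -1.05. For E2f5 the call in shOSGEP#2 was lost without shCtr replicate 1 or shOSGEP#2 replicate 3, at -1.76 and -1.71.

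None of 28 mitotic genes was called in either shRNA by edgeR, with 10 and 4 at an unadjusted p under 0.05 (34.9% and 35.6% of all genes tested), while DESeq2 called 6, all lower, in shOSGEP#1 and 1, lower, in shOSGEP#2 (19.0% and 18.8% of these genes in either direction, 8.75% and 8.29% lower). In edgeR 1 was called in shOSGEP#2 without shOSGEP#1 replicate 3, and 3 and 1 were called in the 2 shRNAs without replicate 3 in any group. Of all genes, 11.6% were called in shOSGEP#2 without shOSGEP#1 replicate 3. The median log2 fold change of the 28 mitotic genes was -0.50 in shOSGEP#1, or -0.23 without shOSGEP#1 replicate 3, and -0.31 in shOSGEP#2. Mki67, which encodes the proliferation marker Ki-67, was at 131, 111.7 and 172 CPM in shCtr, 263, 245 and 120 CPM in shOSGEP#1, and 189 and 153 CPM in shOSGEP#2. It was above shCtr in shOSGEP#1 replicates 1 and 2 and within it in replicate 3, with fold changes of 0.59 ± 0.27 and 0.22 ± 0.30 (edgeR, adjusted p = 0.149 and 0.637), and without replicate 3 in any group it was called in shOSGEP#1, at 1.06.

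The replication mRNAs were also compared with the rest of the table in what their sequences share. Their median length was 2988 nucleotides, against 3156 over the genes tested, and their median GC content was 48.8%, against 50.3%. Codons that begin with A, which are read by the tRNAs that carry t6A, made up a median of 29.0% of their coding sequence (lowest 19.5%, highest 35.3%), against 27.0% over the genes tested.

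Promoters of 300 bases, from 250 bases before to 50 after each gene start, were given by RefSeq (GRCm38.p6) for 35 of the 42 genes. E2F-type sites were searched as TTTGGCGC, TTTCGCGC, TTTCCCGC and TTTGCCGC on both strands, and a gene with overlapping matches was counted once. Such letters were found for 14 of the 35 genes (40.0%), in 34.1% of their 41 promoters, against 2.26% of all 32851 promoters and 4.66% of the genes tested that had a promoter. CCAAT, also searched on both strands, was found for 23 of the 35 (65.7%), against 43.3% of the genes tested that had a promoter. It was in 61.0% of the promoters of the replication genes, against 37.4% of all promoters. In shOSGEP#2 the median log2 fold change was -0.64 for the 14 genes with an E2F-type match and -0.41 for the 21 without, and in shOSGEP#1 it was -0.02 and -0.25. The stretches of 30 bases around matches that lie before the gene start are shown, since E2F-type letters were so much more frequent in these promoters than in all promoters. They are in lower case with the match in capitals, on the strand of the gene, and a match says nothing of whether a factor binds there.
Mcm5 (chr8:75109345-75109374, plus strand): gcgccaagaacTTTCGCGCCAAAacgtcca
Mcm6 (chr1:128359797-128359826, minus strand): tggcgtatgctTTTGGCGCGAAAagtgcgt
Mcm6 (chr1:128359734-128359763, minus strand): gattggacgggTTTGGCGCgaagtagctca
Mcm7 (chr5:138172030-138172059, minus strand): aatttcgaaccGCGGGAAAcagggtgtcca
Orc1 (chr4:108579416-108579445, plus strand): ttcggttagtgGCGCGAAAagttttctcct
Cdc6 (chr11:98908002-98908031, plus strand): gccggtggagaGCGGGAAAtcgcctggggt
Gins3 (chr8:95633507-95633536, plus strand): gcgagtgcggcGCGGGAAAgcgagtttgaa
Pola1 (chrX:93632275-93632304, minus strand): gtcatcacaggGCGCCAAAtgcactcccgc
Rfc3 (chr5:151651209-151651238, minus strand): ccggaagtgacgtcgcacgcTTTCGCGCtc
Of these 8 genes, 6 had both shOSGEP#2 libraries below every shCtr library, against 24 of all 42 replication genes and 23.6% of all genes tested, and Gins3 and Pola1 had values of 0.22 and 0.02 there. The other 6 genes with a match, Mcm3, Lig1, Pold1, Pold3, Cdt1 and Pole2, had it only in the 50 bases after the gene start. Of these, Pold3, Cdt1 and Pole2 had both shOSGEP#2 libraries below every shCtr library, and Mcm3, Lig1 and Pold1 overlapped with shCtr.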

How the data were processed

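RNA recovered with FLAG-RIG-I was sequenced from 9 libraries of B16F10 cells, 3 each of shCtr, shOSGEP#1 and shOSGEP#2. The authors trimmed reads with Trim Galore, aligned them with STAR, used Salmon to quantify genes on GRCm39, and deposited the counts as whole numbers, not normalized or pooled; the strand setting of the counting was not given in the sources used here. Of the 42 genes, 12 share exon bases with another gene of the counts, 11 only on the opposite strand (Cdc45, Chaf1a, Fen1, Gins2, Lig1, Mcm7, Orc2, Orc6, Rfc2, Rfc4 and Rfc5) and Pole2 on the same strand, and Rb1 and E2f5 do on the opposite strand, so that such counts may be split imprecisely.

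Counts were tested with edgeR 4.0.16 (R 4.3.3, TMM, filterByExpr, quasi-likelihood test, a coefficient per group, no covariate) on the 8 libraries other than shOSGEP#2 replicate 2, which was left out for depth, with Benjamini-Hochberg adjustment over all 12744 genes tested and a threshold of 0.01. The SE is the log2 fold change divided by the root of the test's F. DESeq2 1.42.0 and limma 3.58.1 were alternatives. The test was first tried on simulated data. Of 100 genes changed by 1 on the log2 scale, edgeR recovered 18 in shOSGEP#1 and 13 in shOSGEP#2. Of 100 changed by 2, it recovered 96 and 87. Lists used pandas 2.3.3 with numpy 2.4.6 in Python 3.11.15, intervals scipy 1.17.1, and plots matplotlib 3.10.9. Log2 ratios by library used CPM with 0.5 added.

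Symbols matched 22237 of 22396 identifiers. Lengths and codons came from the longest coding transcript of GENCODE M21 (GRCm38, another build than that of the counts) and promoters from RefSeq. The members and lists were chosen with earlier results of these data known. Values in every library are given for members called in any comparison, else the member of each role group with the smallest p against shCtr, for the 3 highest and 3 lowest members per kilobase, for up to 6 called genes of each other list, and for Osgep, Ddx58, Mki67 and Top2a. Mcm7, Cdc45, Rfc5, Rpa3 and other members named with fold changes only were added after their values were seen. Replicates are independent experiments according to the study.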

Additional observations from a re-analysis of the deposited data

Results flagged for a closer look

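Genes of the lists that differed between the 2 shRNAs in a direct test (edgeR, adjusted p under 0.01, 8 libraries) were all outside the 42 replication genes, and Samhd1, E2f4, Rbl2 and Top1 are named after their values were seen. In shOSGEP#2 against shOSGEP#1 the log2 fold change was 1.10 for Rrm2b, 0.89 for Samhd1, which encodes a deoxynucleotide hydrolase, 1.10 for Rb1 and 0.80 for E2f6. It was -1.30 for E2f4 and -0.93 for Rbl2, which encode an E2F repressor and a partner of it, and -0.64 for Top1, topoisomerase I.

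In shOSGEP#2 replicate 2, the shallow library outside the comparisons, 4 replication genes were above every shCtr library, Gins4 at 207 CPM, Cdt1 at 170 CPM, Pole at 84.4 CPM and Rpa3 at 77.3 CPM. Their counts in it were 118, 97, 48 and 44, where the other shOSGEP#2 libraries would give 19.8, 51.0, 27.7 and 28.0 at its depth. No share over all genes is given here for this position, and the 4 are not read as enriched. Of the tested genes that would have more than 3 counts by the same reckoning, 59.4% had no count. Of the other replication genes in it, Mcm2, Pcna, Rpa1, Rrm1 and Rrm2 were below every other library and 32 had no count, and the 42 together had 597 counts, where the other shOSGEP#2 libraries would give 1512 at its depth.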

How the results depend on the processing

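Of the 50 fold changes of named genes, 38 kept their direction under all 20 alternatives (19 for Osgep, which the strict filter on counts drops), and 4 of the alternatives (DESeq2 and limma voom with sample weights on all 9 libraries, leaving out replicate 3 in every group, and the replicate block without shOSGEP#1 replicate 3) were added after seeing the data. With all 9 libraries edgeR called 0 genes in each comparison and each list, and the common dispersion was 0.42 against 0.0692 with 8 libraries. The median of the replication genes became -1.06 in shOSGEP#2 and -0.86 between the shRNAs, and that of all genes tested became -0.37 and -0.35. DESeq2 on all 9 libraries called 122, 349 and 413 genes (shOSGEP#1, shOSGEP#2 and between them), 0 replication genes in each, 0 and 0 other replication factors and 0 and 1 S-phase regulators in the 2 shRNAs, with medians of -1.07 in shOSGEP#2 and -0.93 between the shRNAs. For these and the values below the cause was not tested.

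DESeq2 on the same 8 libraries called 2420, 2395 and 2595 genes, 1, 9 and 5 replication genes, 2 and 7 other replication factors, 6 S-phase regulators in shOSGEP#2, and 6 and 1 mitotic genes. With RLE scaling 2 replication genes were called between the shRNAs (10.9% of all genes), and the same was so with at least 10 counts in every library (13.4%). With at least 10 counts 4 other replication factors were called in shOSGEP#2 (12.2% of all genes). With no filter on low counts 1, 5 and 4 replication genes were called, where 11.1%, 10.2% and 11.5% of all genes in that fit were. That fit also called 1 and 5 other replication factors, 5 S-phase regulators in shOSGEP#2, and 5 and 1 mitotic genes. With only the 2 groups compared in the fit, 2 replication genes were called in shOSGEP#2 (Rfc5 and Rpa1, but not Pold3), where 8.24% of all genes were. In that setting 737 genes were called between the shRNAs. Limma voom with sample weights on all 9 libraries called 3317 genes in shOSGEP#1, 1 replication gene in shOSGEP#1 and 1 between the shRNAs, 6 and 1 other replication factors, and 6 mitotic genes in shOSGEP#1. Of all genes in that fit, 26.9% were called in shOSGEP#1, 8.20% in shOSGEP#2 and 7.56% between the shRNAs. At an adjusted p under 0.05 there were 2797, 2674 and 2952 genes, 1, 9 and 6 replication genes, 3 and 7 other replication factors, 6 S-phase regulators in shOSGEP#2, and 5 and 1 mitotic genes.

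A replicate block, with the replicate number as a covariate, called 1380, 1238 and 1393 genes and 0, 1 and 1 replication genes, with medians of -0.05, -0.61 and -0.40. Correlations between libraries of the same number ran from -0.00337 to 0.18 and not every library correlated best with its own number. A library's correlations with the 2 deep shOSGEP#2 libraries were equal and opposite (0.18 and -0.18 for shCtr replicate 1). These values therefore cannot decide whether the numbers pair the libraries. The replicate block without shOSGEP#1 replicate 3 called 631, 1450 and 752 genes, 1, 5 and 1 replication genes, 3 S-phase regulators in shOSGEP#1 and 1 mitotic gene in shOSGEP#2, with a median of -0.73 between the shRNAs.

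Leaving out libraries gave 0 to 10, 0 to 5 and 0 to 10 replication genes and 318 to 2263, 518 to 1841 and 743 to 1919 genes in all. The ranges were 0 to 6 and 1 to 5 for other replication factors, 1 to 8 and 1 to 6 for S-phase regulators, and 0 to 3 and 0 to 1 for mitotic genes. The median of the replication genes ran from -0.24 to 0.19, from -0.67 to -0.34 and from -0.66 to -0.26.

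The direction of 12 fold changes reversed under some alternative. With all 9 libraries in shOSGEP#2 (edgeR, then DESeq2) Mcm2 became -0.10 and -0.11, Rrm2 -0.55 and -0.60, Gins3 -0.19 and -0.18, E2f6 0.82 and 0.87, Rb1 -0.18 and -0.23, Mki67 -0.0663 and -0.0796 and Top2a -0.36 and -0.39. In shOSGEP#1 Lig1 became -0.00154 with all 9 libraries and -0.00569 with only the 2 groups compared, and Rrm2 became -0.0376 in the replicate block. Top2a became 0.0226 with voom and 0.15 in the replicate block without shOSGEP#1 replicate 3, in which Rrm2 in shOSGEP#2 became -0.0147. Over the fits that left out libraries, fold changes that crossed 0 ran from -0.17 to 0.46 for Lig1, from -0.576 to 0.0402 for Chaf1b, from -0.19 to 0.56 for Rrm2, from -0.408 to 0.0244 for Pole3 and from -0.365 to 0.19 for Top2a in shOSGEP#1, and from -0.19 to 0.38 for Rrm2 and from -0.0644 to 0.141 for Top2a in shOSGEP#2. Depth limits what can be said of shOSGEP#2, where 2 deep libraries carry each comparison.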
